A study of Arabidopsis thaliana with 14 samples.

Results

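Whole seedlings of Arabidopsis thaliana that carried the transgene 35S:YFP-AFL1 were compared with wild-type seedlings on unstressed plates. The 3 arrays labelled 35S-AFL1 control and the 4 arrays labelled wild-type control were taken from the sample titles, which gave 7 of the 14 arrays of the series. The background of both genotypes was Col-0, the common laboratory accession. Seedlings grew on agar under continuous light to an age of 7 days, were moved to fresh plates of the same medium, and were collected 10 h after the move. The other 7 arrays, 4 wild-type and 3 35S:YFP-AFL1, came from seedlings moved at the same age to plates that held polyethylene glycol at -1.2 MPa, again for 10 h, and are used only where stated. All groups therefore shared the transfer itself, and no group was left on its first plate. The 35S promoter of a plant virus drives expression in most tissues, and AFL1 was made as a fusion to a yellow fluorescent protein. The labels name neither the number of independent transgenic lines nor an empty-vector or YFP line, and they do not say whether replicates came from separate cultures. P-values therefore reflect no more than the variation among these arrays, part or all of which may be technical.

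AFL1 (At14a-Like 1, AT3G28270) is a protein of cell membranes that is itself induced by low water potential. Its family has a region that resembles animal integrins. Low water potential means that water is held more tightly outside the plant, and seedlings answer it with abscisic acid (ABA), the solute proline and protective dehydrins. Protein disulfide isomerase and NAI2, a protein of endoplasmic reticulum (ER) bodies, are known partners of AFL1, as are adaptors of clathrin-coated vesicles. Several of the genes described below mark single root tissues. Endodermal cells wrap the vascular cylinder in a lignin band, the Casparian strip, and later in suberin, and root hairs are outgrowths of epidermal cells.

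Levels are given as log2 of the processed spot signal relative to the array's own 75th percentile, so that a level of 0 is the 75th percentile and a difference of 1 is a doubling. A difference is the mean of the 3 35S:YFP-AFL1 arrays minus the mean of the 4 wild-type arrays. Calls were made in limma, in 1 fit to all 14 arrays, where the p-value adjusted over 18309 genes by Benjamini-Hochberg was under 0.05. All adjusted p-values for genes come from that fit unless another is named.

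The arrays lay on 5 slides. The 3 35S:YFP-AFL1 control arrays shared slide 4 with wild-type control replicate 1, and the other 3 wild-type control arrays were on slides 1 and 2, which were scanned on another day. Wild-type control replicate 1 stood apart from the other 3, with 1128 genes more than 2-fold from their mean. The same count was 391, 412 and 485 for replicates 2, 3 and 4, each set against its own remaining 3. Of the 2992 genes with all 35S:YFP-AFL1 arrays below wild-type replicates 2 to 4, replicate 1 was also below those replicates in 2394 (80.0%). Of the 2813 genes with all 35S:YFP-AFL1 arrays above them, replicate 1 was also above in 2105 (74.8%). Over all genes tested, replicate 1 lay below replicates 2 to 4 for 30.5% and above them for 31.3%. Differences below are against all 4 wild-type arrays, and for many genes and lists the value against replicate 1 (the same-slide value) or against the other 3 is given as well. Processed signals had a 75th percentile of 1054 to 1467 over the 7 arrays, between 62.6% and 67.0% of probes exceeded background clearly, and there were 0 saturated spots.

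AFL1 itself was checked first. Its level was 0.66, 0.04, -0.41 and -0.55 in wild-type replicates 1 to 4 and 2.45, 2.51 and 2.08 in 35S:YFP-AFL1 replicates 1 to 3. The groups did not overlap, and the highest wild-type array was the one on the same slide. AFL1 rose by 2.41 (SE 0.26, 95% interval 1.84 to 2.98, adjusted p = 0.00453), which is 5.31-fold. Against replicate 1 the difference was 1.68, and against the other 3 wild-type arrays it was 2.65. The difference remained positive in both cases, but with the slide as a block in the fit AFL1 was not called (adjusted p = 0.112). On a linear scale, relative to the 75th percentile, the wild-type AFL1 signal was 1.01 ± 0.408 (SD, n = 4), and that of 35S:YFP-AFL1 seedlings was 5.12 ± 0.796 (SD, n = 3). The other 2 AFL1 probes read 1.89 and 2.03 higher, with same-slide values of 1.34 and 1.38. At low water potential, where wild-type AFL1 reached 12.95 ± 3.05 (SD, n = 4) on the linear scale and 35S:YFP-AFL1 reached 15.9 ± 1.50 (SD, n = 3), the log2 difference was 0.32 (adjusted p = 0.526). Unstressed 35S:YFP-AFL1 seedlings thus held AFL1 transcript at a level between the wild-type levels of the 2 treatments. The change of the AFL1 difference between treatments had an unadjusted p of 8.19e-05 in limma and an adjusted p of 0.155, so it was not called. AT14A, the neighbouring family member after which AFL1 is named, read -1.08, -1.55, -1.77 and -1.35 in wild type and -1.33, -1.44 and -1.50 in 35S:YFP-AFL1. Its groups overlapped, with a difference of 0.02 (95% interval -0.47 to 0.51). The third family member listed had no probe among the genes tested. The other 5 measured genes nearest to AFL1 differed by between -1.01 (GATL10) and 0.46 (ABCB15), and none was called.

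**Figure D1:**
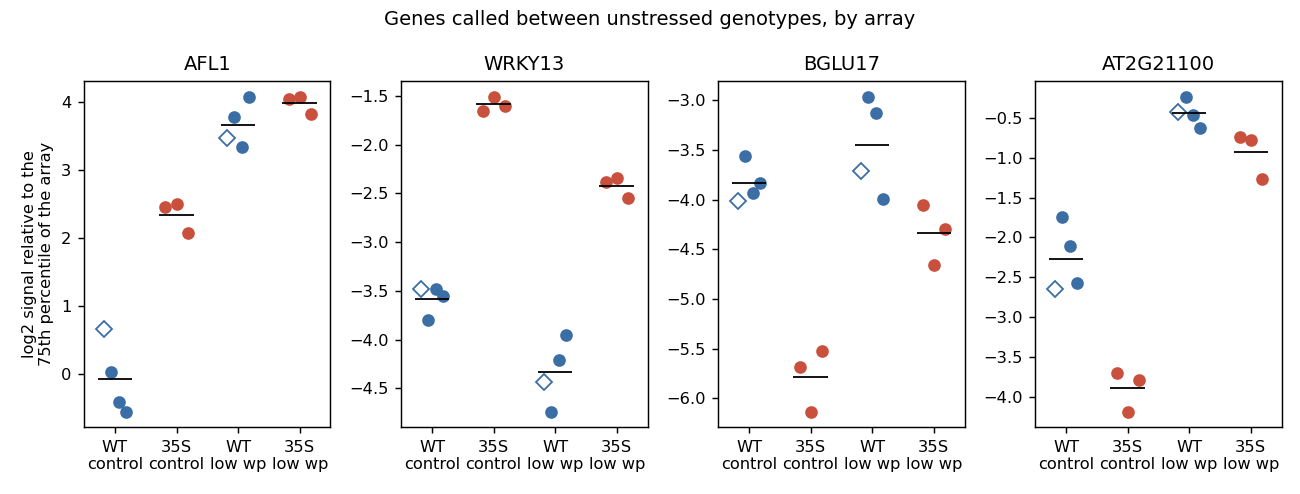
Log2 level relative to the array's 75th percentile (vertical axis) of AFL1, WRKY13, BGLU17 and AT2G21100 on each array of the 4 groups of genotype and treatment; WT is wild type, 35S is 35S:YFP-AFL1 and low wp is low water potential. Points are arrays, open diamonds are wild-type replicate 1 of each treatment, which shares a slide with the 35S:YFP-AFL1 arrays, and lines are group means; only WRKY13 shows separate groups of like distance in both treatments.

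Beyond AFL1, 3 genes were called on unstressed plates, so that 4 of 18309 genes (0.0218%) passed, 2 higher (0.0109%) and 2 lower (0.0109%). An unadjusted p under 0.05 was reached by 2065 genes (11.3%), higher in 4.24% and lower in 7.04% of all genes. The arrays of the groups did not overlap for 2494 genes (13.6%), with 1261 above (6.89%) and 1233 below (6.73%) every wild-type array. Differences of more than 2-fold were measured for 618 genes, of which 89 were higher and 529 lower in 35S:YFP-AFL1. The median over all genes tested was 0.02.

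WRKY13, a transcription factor known for promoting lignin formation in stems, gave the clearest difference. It read -3.49, -3.80, -3.48 and -3.55 in wild type and -1.66, -1.51 and -1.60 in 35S:YFP-AFL1. The wild-type arrays of all 3 slides lay together, and all 35S:YFP-AFL1 arrays were far above them. WRKY13 rose by 1.99 (SE 0.16, adjusted p = 0.000303), the same-slide value was 1.90, and it was called with the slide as a block (adjusted p = 0.00555). At low water potential no wild-type array had WRKY13 well above background, and 35S:YFP-AFL1 was again higher, at least 3.33-fold (adjusted p = 0.000503). Of the 4 genes called on unstressed plates it was the only one called with the slide as a block. A total of 1 kept probe measured it. Its nearest measured neighbours on one side, the brassinosteroid receptor gene BRI1 and NST-K1, differed by 0.02 and -0.12. On the other side SAMC1 differed by 0.12 and AT4G39470 by 0.36. AT4G39420, the nearest there, read higher by 1.14 (0.26 on the same slide). It was not well above background on any unstressed array of either genotype. At low water potential AT4G39420 differed by 1.35 (adjusted p = 0.0686), well above background on 3 35S:YFP-AFL1 arrays and 1 wild-type array. None of these 5 neighbours was called.

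BGLU17, a member of the glycoside hydrolase family of beta-glucosidases, read -4.02, -3.56, -3.94 and -3.83 in wild type and -5.69, -6.14 and -5.52 in 35S:YFP-AFL1. Its probe was not well above background on any unstressed 35S:YFP-AFL1 array, so the difference has only a bound. The level of -6.14 in replicate 2 is the lowest written on that array and is shared by many dim probes. BGLU17 fell by 1.95 on the measured values (SE 0.25, adjusted p = 0.0174), and wild type was at least 1.05-fold higher. Such bounds set the mean of the brighter group against, for each array of the dimmer group, the higher of its own signal and the dimmest signal among probes that passed as above background. On the same slide BGLU17 was not well above background in either genotype, and at low water potential the measured difference was -0.89 (adjusted p = 0.0808). AT2G21100, a locus without a symbol in the gene table, read -2.65, -1.75, -2.11 and -2.57 in wild type and -3.71, -4.19 and -3.79 in 35S:YFP-AFL1. It fell by 1.63 (SE 0.22, adjusted p = 0.0241), with a same-slide value of -1.25. The second probe of AT2G21100 differed by -1.21 against all 4 wild-type arrays and by -0.84 on the same slide. That probe was not well above background on any unstressed 35S:YFP-AFL1 array. Under low water potential AT2G21100 was higher in both genotypes and differed by -0.49 (adjusted p = 0.239). Neither BGLU17 nor AT2G21100 was called with the slide as a block (adjusted p = 0.184 and 0.194).

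Other genes with separate groups or large fitted differences were not called. PEI1, a zinc-finger protein of embryos, read -5.13, -4.88, -4.52 and -5.04 in wild type, where no array was well above background, and -3.51, -2.21 and -2.35 in 35S:YFP-AFL1. The groups did not overlap, and 35S:YFP-AFL1 was at least 3.04-fold higher (adjusted p = 0.0807). At low water potential PEI1 was not well above background in either genotype. SWEET10, a sugar exporter, read -0.93, -1.84, -1.77 and -1.61 in wild type and 0.00, -0.24 and -0.31 in 35S:YFP-AFL1. Its difference was 1.35 (adjusted p = 0.0807), and wild-type replicate 1 was the nearest array, with a same-slide value of 0.75. CIPK25, a kinase bound by calcium sensors, was higher by 1.73 (adjusted p = 0.15), with the 35S:YFP-AFL1 arrays spread from -3.10 to -0.72 and replicate 1 not well above background. GA3OX1, which makes active gibberellin, was higher by 0.75 and by 0.78 on the same slide (adjusted p = 0.158). PORA, an enzyme of chlorophyll synthesis, was higher by 0.92 on both references (adjusted p = 0.11). MSH7, a protein of DNA mismatch repair, was higher by 0.95 (adjusted p = 0.247) and by 1.14 on the same slide, with 1 of 4 wild-type arrays well above background. CLV3, the stem-cell peptide of the shoot meristem, was higher by 1.47 against all 4 wild-type arrays but by 0.30 against replicate 1, which read -1.01 where the others read -2.98 to -1.95.

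On the lower side, AGP30, an arabinogalactan protein of roots, read -3.42, -1.40, -1.73 and -3.13 in wild type and -6.30, -6.14 and -4.47 in 35S:YFP-AFL1. Wild type was at least 2.81-fold higher (adjusted p = 0.0807), and every wild-type array lay above every 35S:YFP-AFL1 array. The metalloproteinase gene MMP read -2.50, -2.48, -2.82 and -2.78 in wild type and -4.14, -6.14 and -4.45 in 35S:YFP-AFL1. Wild type was at least 2.40-fold higher for MMP (adjusted p = 0.0632), and its replicate 1 lay among the other wild-type arrays. NIT2, a nitrilase, was at least 2.01-fold higher in wild type (adjusted p = 0.0807), and PER4, a peroxidase, at least 1.33-fold (adjusted p = 0.222). PGIP1, an inhibitor of pectin-degrading polygalacturonases, had the tightest arrays of these genes, at 1.08, 1.29, 1.19 and 1.01 in wild type and 0.05, 0.01 and 0.18 in 35S:YFP-AFL1. Its difference was -1.06 (95% interval -1.51 to -0.61, adjusted p = 0.0812), -0.998 on the same slide and -1.04 at low water potential (adjusted p = 0.0246). UNE11 differed by -1.78 (adjusted p = 0.0807), by -1.36 on the same slide and by -2.05 at low water potential (adjusted p = 0.00844). In each treatment it was well above background on 1 of 3 35S:YFP-AFL1 arrays. For others the difference was smaller against replicate 1. The gibberellin-inactivating GA2OX6 differed by -2.17 and the glutathione transferase gene GSTU24 by -2.01, against same-slide values of -0.99 and -0.64. DIP2 differed by -2.28 (adjusted p = 0.0807) and by -0.73 on the same slide. GSTF6, another glutathione transferase gene, differed by -2.06 and by -2.42 on the same slide, with wild-type arrays from 0.43 to 2.99.

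**Figure D2:**
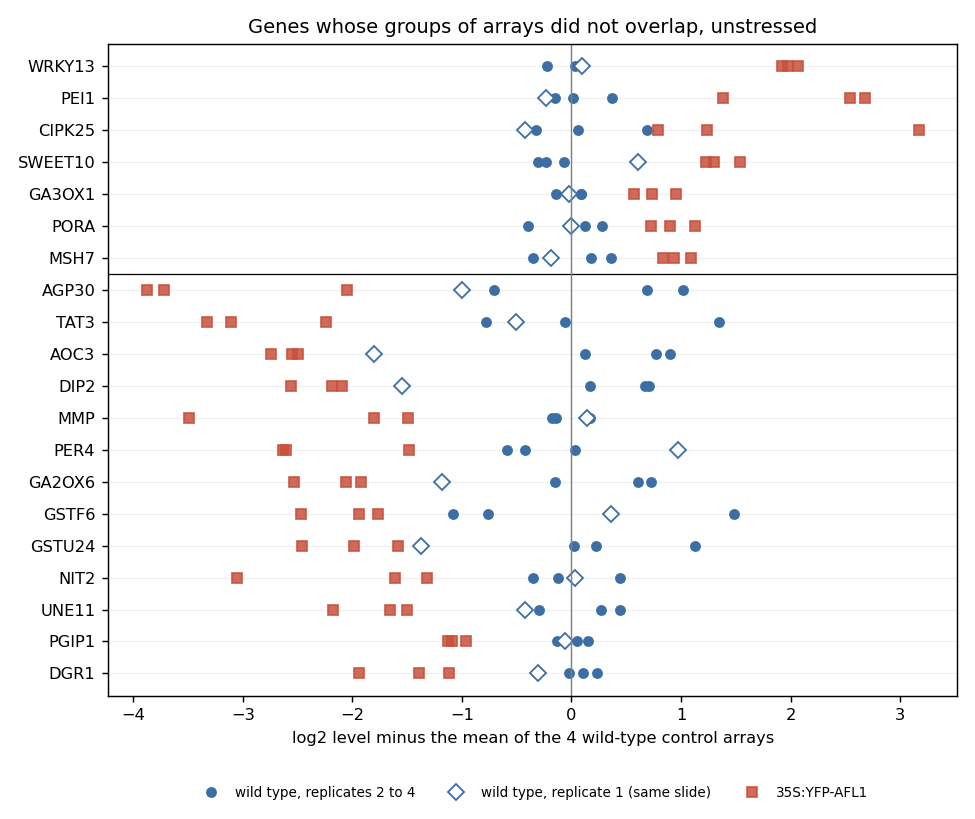
Each array's log2 level minus the mean of the 4 wild-type control arrays (horizontal axis) for 7 genes that were higher and 13 that were lower in unstressed 35S:YFP-AFL1 (squares) than on every wild-type array (circles, replicates 2 to 4; open diamonds, replicate 1 on the same slide). For WRKY13, MMP, NIT2 and PGIP1 the diamond lies among the circles, whereas for AOC3, DIP2 and GSTU24 it lies nearer to the squares.

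Genes of the Casparian strip and suberin read lower in 35S:YFP-AFL1 against every wild-type reference. Of 12 such genes listed, 11 passed the filter on dim probes, and all 11 had a lower mean in 35S:YFP-AFL1. All 35S:YFP-AFL1 arrays lay below all wild-type arrays for 8 of the 11, where 6.73% of all genes did so, and 2 of the 11 were not well above background on any of the unstressed 35S:YFP-AFL1 arrays. CASP4, CASP5 and PER64 passed the filter only through wild type, which leaves the counts over the 11 genes a description. Their median difference was -0.95 against all wild-type arrays, -0.97 against replicate 1 and -0.92 against the other 3. None was called, and 9 had an unadjusted p under 0.05 in limma, all lower. In RNA from whole seedlings, fewer cells of a type and less RNA per cell cannot be told apart.

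ESB1, a dirigent-like protein that places the lignin of the strip, read 0.72, 0.82, 0.47 and 0.33 in wild type and 0.03, -0.70 and -0.57 in 35S:YFP-AFL1. Its groups did not overlap, with a difference of -0.999 (SE 0.20, adjusted p = 0.0822) and a same-slide value of -1.13. At low water potential ESB1 differed by -0.98 (adjusted p = 0.0269). The CASP genes encode the membrane scaffold on which the strip is built. CASP1 read -1.19, -0.99, -1.12 and -1.11 in wild type and -1.62, -2.01 and -2.26 in 35S:YFP-AFL1, a difference of -0.86 (adjusted p = 0.277). CASP1 differed by -0.78 on the same slide and by -1.46 at low water potential (adjusted p = 0.0244). The 35S:YFP-AFL1 arrays of CASP1 lay below all wild-type arrays on unstressed plates. CASP5 was not well above background on any unstressed 35S:YFP-AFL1 array, and wild type was at least 1.75-fold higher (adjusted p = 0.15). At low water potential again no 35S:YFP-AFL1 array had CASP5 well above background, and wild type was at least 2.17-fold higher (adjusted p = 0.0484). CASP4 had the largest standard error of the list (1.02) and overlapped, at -2.93 to -1.33 in wild type and -4.56 to -2.89 in 35S:YFP-AFL1.

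CASP2 was the only one of the 11 genes with a positive difference at low water potential. It read 0.00, 0.64, 0.35 and 0.32 in unstressed wild type and -0.39, -0.79 and -0.82 in 35S:YFP-AFL1, a difference of -0.99 (adjusted p = 0.0807). At low water potential wild type read 0.66, 0.11, 0.46 and 0.40 and 35S:YFP-AFL1 read 1.01, 0.89 and 1.32. The groups were again separate but in the opposite order, with a difference of 0.67 (adjusted p = 0.0725). The change of the CASP2 difference between treatments had an unadjusted p of 2.03e-05 in limma and was not called (adjusted p = 0.0839).

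MYB36, the transcription factor that switches on the CASP genes, read -1.94, -1.45, -1.72 and -1.85 in wild type and -2.10, -2.34 and -2.42 in 35S:YFP-AFL1. Its difference was -0.55 (adjusted p = 0.415), -0.35 on the same slide and -1.22 at low water potential (adjusted p = 0.024). PER64, the peroxidase of the strip, differed by -0.96 (adjusted p = 0.218) and by -0.97 on the same slide. Among the suberin genes, RWP1, the feruloyl transferase also called ASFT, differed by -0.61 (adjusted p = 0.305) and GPAT5, which makes suberin precursors, read lower by 0.95 on measured values, with no 35S:YFP-AFL1 array well above background. CYP86A1, a fatty acid hydroxylase of suberin synthesis, overlapped and differed by -0.30 (adjusted p = 0.704). RWP1 and GPAT5 had higher levels at low water potential in both genotypes, and there they differed by -0.08 and -0.20. Over the 11 genes the low water potential median was -0.78, and CASP1, CASP5, ESB1 and MYB36 were called lower there, where 1.69% of all genes were called lower.

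Root hair genes were also lower, by an amount that depended on the wild-type reference. Of 10 listed genes 9 passed the filter, and 6 of the 9 lay below every wild-type array (6.73% of all genes), with none above. Of the 9, 4 were not well above background on any unstressed 35S:YFP-AFL1 array and so passed through wild type, where they were higher, which leaves that count a description. The median difference of the 9 was -1.27 against all wild-type arrays, -0.54 against replicate 1 and -1.45 against the other 3. Again none was called, and 6 had an unadjusted p under 0.05, all lower. PRP1, a proline-rich wall protein of root hairs, read -3.69, -2.26, -2.87 and -2.04 in wild type and -3.81, -5.01 and -5.17 in 35S:YFP-AFL1. No 35S:YFP-AFL1 array had it well above background, and wild type was at least 2.18-fold higher (adjusted p = 0.111), although replicate 1 lay next to the highest 35S:YFP-AFL1 array. PRP3, its brighter relative, read -0.67, 0.57, 0.24 and -0.67 in wild type and -0.84, -1.89 and -1.49 in 35S:YFP-AFL1, a difference of -1.27 (adjusted p = 0.199). RHD2, the NADPH oxidase that feeds hair growth, was at least 1.39-fold higher in wild type (adjusted p = 0.11), and RSL4, the transcription factor that sets hair length, at least 1.02-fold (adjusted p = 0.213). The hair expansin EXPA7 differed by -1.38, with a same-slide value of -0.54, and EXPA18 by -1.001 on measured values, with neither replicate 1 nor any 35S:YFP-AFL1 array well above background. RHD6, an early hair regulator, overlapped between groups. LRX1, an extensin-like wall protein, and SHV2, also called COBL9, differed by -0.03 and 0.05. At low water potential PRP3 differed by -2.03 (adjusted p = 0.0185), and the median of the 9 genes was -1.46. In neither treatment was PRP1 or EXPA18 well above background on any 35S:YFP-AFL1 array. Under low water potential wild type was at least 2.56-fold higher for PRP1 and 1.30-fold for EXPA18 (adjusted p = 0.014 and 0.0121).

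The 6 genes of the thalianol and marneral clusters, neighbouring genes that make root triterpenes, all passed the filter and all had a lower mean, 2 of them with no 35S:YFP-AFL1 array well above background. For 4 of the 6, every 35S:YFP-AFL1 array lay below every wild-type array (6.73% of all genes), none was called on unstressed plates, and 4 were lower at an unadjusted p under 0.05 (7.04% of all genes). CYP71A16 and MRN1 passed the filter only through wild type, where they were higher, which leaves these counts a description. Their median difference was -1.38, with -0.73 against replicate 1 and -1.60 against the other 3. THAS1, thalianol synthase, read -0.48, 1.001, 0.99 and 0.29 in wild type and -0.77, -1.91 and -1.15 in 35S:YFP-AFL1. Replicate 1 was the lowest of the wild-type arrays, and the difference was -1.73 (adjusted p = 0.225). CYP71A16, which oxidises marneral products, and MRN1, marneral synthase, had no 35S:YFP-AFL1 array well above background. Wild type was at least 1.45-fold higher for CYP71A16 (adjusted p = 0.0807) and at least 2.55-fold higher for MRN1 (adjusted p = 0.178). CYP705A5, the thalianol desaturase, differed by -1.03 (adjusted p = 0.199). CYP708A2 and CYP705A12 overlapped, with differences of -0.73 and -0.21. At low water potential THAS1 differed by -2.63 (adjusted p = 0.0246) and CYP705A5 by -1.80 (adjusted p = 0.0123). No 35S:YFP-AFL1 array had CYP71A16 well above background there either, and wild type was at least 2.33-fold higher (adjusted p = 0.021).

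**Figure D3:**
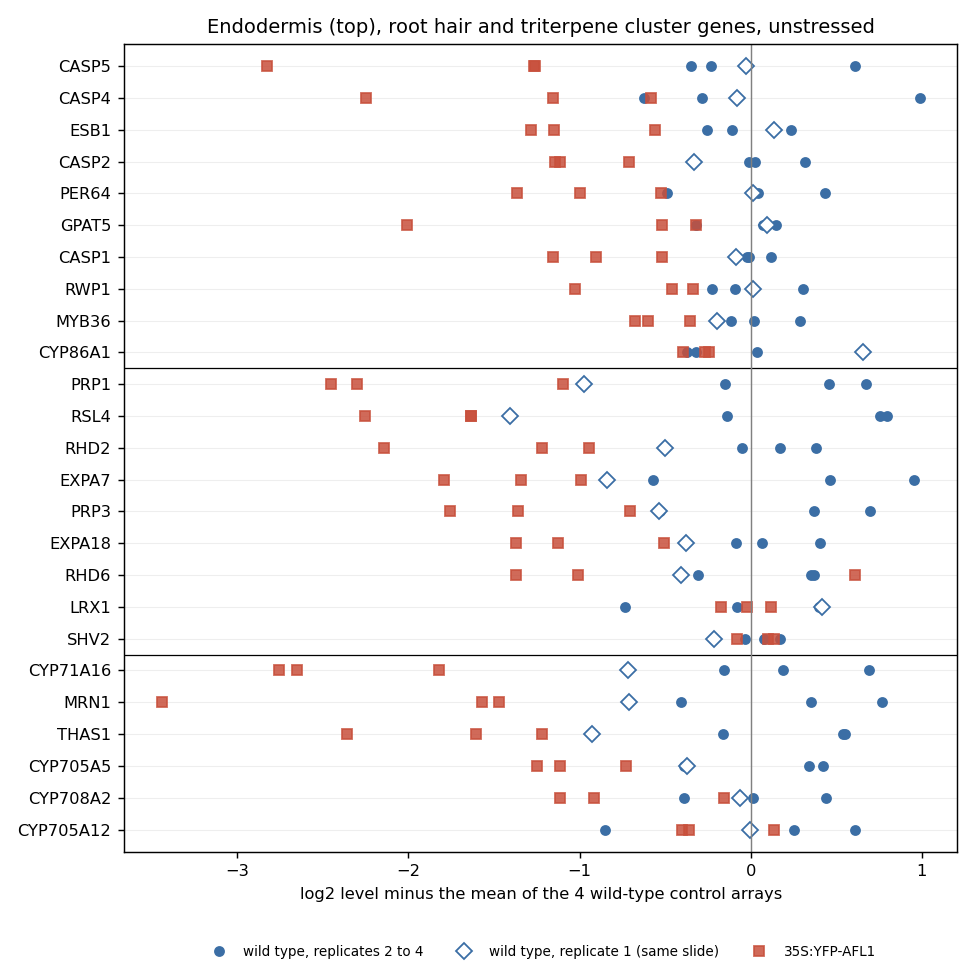
Each array's log2 level minus the mean of the 4 wild-type control arrays (horizontal axis) for 10 of the endodermis and suberin genes, 9 root hair genes and 6 triterpene cluster genes, in blocks from top to bottom. Squares are unstressed 35S:YFP-AFL1, circles wild-type replicates 2 to 4 and open diamonds wild-type replicate 1 on the same slide. In the top block the diamonds lie mostly among the circles. They lie below all circles for 8 of 9 root hair genes and for 3 of 6 triterpene cluster genes.

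Other root and shoot markers did not move with these lists as a whole. SCR and SHR, which pattern the endodermis and were the 2 of 5 listed root tip genes that passed the filter, differed by 0.04 (95% interval -0.27 to 0.35) and -0.06 (95% interval -0.43 to 0.31). The 36 photosynthesis genes had a median difference of 0.00, with 1 above and 1 below all wild-type arrays. Stomatal and shoot epidermis genes, 13 of 15 listed, had a median of 0.13 and a same-slide median of 0.23. The guard cell potassium channel genes KAT1 and KAT2 and the polarity gene BASL, 3 of the 13, lay above all wild-type arrays (6.89% of all genes). Their differences were 0.66, 0.32 and 0.28 (adjusted p = 0.563, 0.613 and 0.568). None of the 36 or the 13 had an unadjusted p under 0.05 in limma and none was called. Of 20 aquaporin genes 11 had a higher mean, 1 lay above all wild-type arrays and 4 lay below them (6.73% of all genes), among them a pair that are strong in roots. TIP4;1, a vacuolar channel, read lower by 1.25 with a bound of at least 1.46-fold (adjusted p = 0.145), and PIP2;4, a plasma membrane channel, differed by -0.87 (adjusted p = 0.241) and by -0.38 on the same slide. At low water potential TIP4;1, well above background on 1 of 3 35S:YFP-AFL1 arrays, differed by -1.69 (adjusted p = 0.0198). PIP2;4 differed there by -1.17 (adjusted p = 0.0493). The aquaporin list as a whole had a median of 0.04, with 0 called and 4 under an unadjusted p of 0.05. Leaf genes were bright on the wild-type arrays, where RBCS1B read 7.34 to 7.70 and LHCB4.1 read 6.14 to 6.30.

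Genes of cell division lay slightly higher. Of 36 listed genes 29 passed the filter, 8 lay above all wild-type arrays and none below, where 6.89% of all genes lay above. Their median difference was 0.22, with 0.30 against replicate 1 and 0.14 against the other 3. No gene of the list was called, and 2 had an unadjusted p under 0.05. The 8 included 4 subunits of the replicative helicase, the sliding clamp genes PCNA1 and PCNA2, the ribonucleotide reductase gene RNR1 and the G1 cyclin gene CYCD3;1. MCM3 read -1.65, -1.75, -1.76 and -1.83 in wild type and -1.46, -1.43 and -1.08 in 35S:YFP-AFL1, a difference of 0.43 (adjusted p = 0.351). MCM2 differed by 0.36, MCM4 by 0.52 and MCM5 by 0.44 (adjusted p = 0.523, 0.472 and 0.403). The list median at low water potential was -0.10.

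The genes of the rapid touch and wound response, which rise within minutes when a plant is handled and then decay, gave the largest difference between the wild-type references. All 31 that passed the filter, of 33 listed, had a lower mean in 35S:YFP-AFL1 than in the 4 wild-type arrays. The median difference was -0.99 against all 4, -1.64 against replicates 2 to 4, and 1.02 in the opposite direction against replicate 1. Only 4 of the 31 were lower than in replicate 1, and 25 had every 35S:YFP-AFL1 array above it, where 31.5% of all genes did. Replicate 1 was the lowest wild-type array for 29 of the 31. Against all 4 arrays, 2 of the 31 lay below every wild-type array (6.73% of all genes), none was called, and 4 had an unadjusted p under 0.05. With the slide or the scan day as a block the list median turned positive, at 1.02 and 0.23.

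WRKY40, a repressor of defence and ABA genes, read -1.02, 3.70, 3.87 and 3.51 in wild type and 0.02, 1.14 and 0.52 in 35S:YFP-AFL1. The 35S:YFP-AFL1 arrays lay between replicate 1 and the other wild-type arrays, so that the difference was -1.96 against all 4 (adjusted p = 0.567) and 1.58 on the same slide. CML38, a calmodulin-like calcium sensor, read -3.55, 1.25, 1.26 and 1.06 in wild type and -1.56, -0.68 and -1.07 in 35S:YFP-AFL1, with differences of -1.10 against all 4 and 2.45 on the same slide. CBF2, a regulator of the cold response, read -6.23, -0.59, -0.38 and -1.15 against -3.93, -3.35 and -4.69. The CBF2 difference was -1.90 against all 4, and replicate 1, the lowest array, was not well above background. STZ, a zinc-finger repressor, repeated the order at 2.18, 5.26, 5.27 and 4.92 in wild type and 3.32, 3.95 and 3.25 in 35S:YFP-AFL1. MYB15, a cold and wound transcription factor, was 1 of the 4 genes lower than in replicate 1, at -5.59, -1.43, -1.24 and -2.23 in wild type and -5.76, -6.14 and -5.81 in 35S:YFP-AFL1. None of its 35S:YFP-AFL1 arrays was well above background, and they lay beside replicate 1.

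**Figure D4:**
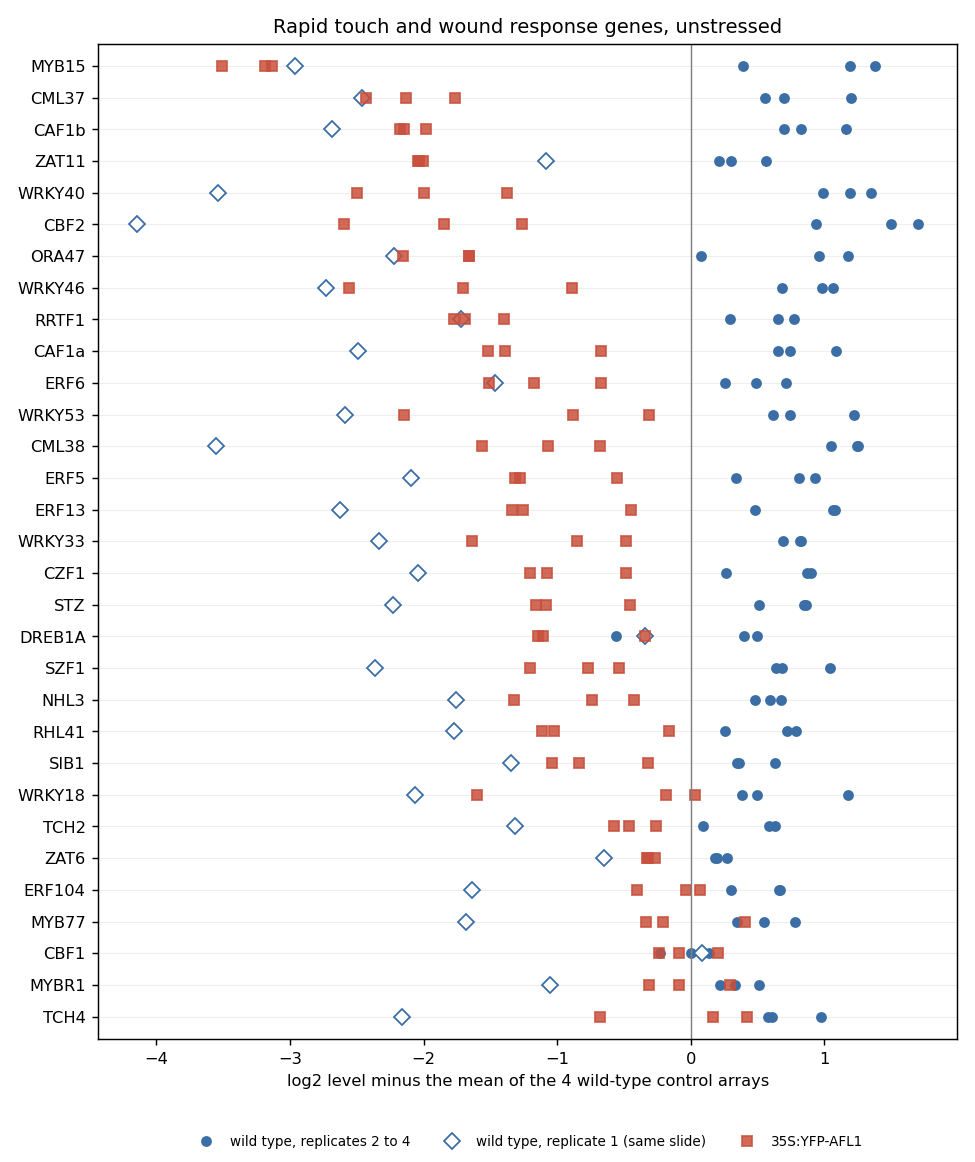
Each array's log2 level minus the mean of the 4 wild-type control arrays (horizontal axis) for 31 rapid touch and wound response genes on unstressed plates. The 35S:YFP-AFL1 arrays (squares) lie mostly between wild-type replicate 1 of the same slide (open diamonds) and wild-type replicates 2 to 4 (circles).

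Jasmonate is the wound hormone, and its genes shared the dependence on replicate 1. The 18 signalling genes had a median difference of -0.35, with 0.06 against replicate 1, and the 13 synthesis genes a median of -0.60 and -0.09. JAZ1, a repressor that jasmonate itself induces, read -0.95, 1.78, 1.74 and 0.93 in wild type and -1.09, -0.71 and -0.89 in 35S:YFP-AFL1. Replicate 1 lay among the 35S:YFP-AFL1 arrays, so the difference was -1.78 (adjusted p = 0.209) against all 4 and 0.05 on the same slide. The synthesis genes AOC3, LOX3 and AOC1, 3 of the 13, lay below every wild-type array, replicate 1 included (6.73% of all genes). AOC3, an allene oxide cyclase, read -2.75, -0.18, -0.05 and -0.83 in wild type and -3.51, -3.46 and -3.69 in 35S:YFP-AFL1, a difference of -2.60 (adjusted p = 0.11) and -0.80 on the same slide. The lipoxygenase gene LOX3 differed by -1.15 (adjusted p = 0.15) and -0.34 on the same slide, and AOC1 by -0.69 and -0.39. TAT3, a jasmonate-induced transaminase, was at least 1.85-fold higher in wild type (adjusted p = 0.15), with -3.53, -3.08, -3.80 and -1.68 in wild type and -6.35, -6.14 and -5.26 in 35S:YFP-AFL1. VSP2, a vegetative storage protein, differed by -1.27 against all 4 and by 0.12 on the same slide. No gene of the signalling, synthesis or late output lists was called, and 6, 6 and 3 of them had an unadjusted p under 0.05 in limma, all lower.

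Salicylate defence genes followed the same course, with a median of -0.56 over 14 of 21 listed genes and -0.07 against replicate 1. PCC1, a pathogen-induced gene, read -0.51, 2.09, 2.42 and 2.88 in wild type and -0.94, 0.26 and 0.10 in 35S:YFP-AFL1, where replicate 1 again lay among the 35S:YFP-AFL1 arrays. GRX480, a glutaredoxin, and NIMIN-2, which binds the salicylate receptor, lay below all wild-type arrays with bounds of at least 1.98-fold and 1.77-fold. Neither was well above background on replicate 1 or on any unstressed 35S:YFP-AFL1 array. No gene of the list was called, and 6 had an unadjusted p under 0.05 in limma. The WRKY family held 49 tested of 72 listed genes, with WRKY13 called and a median of -0.31 against -0.03 on the same slide. Of the 49, 2 lay above all wild-type arrays and 9 below (6.89% and 6.73% of all genes), and at an unadjusted p under 0.05 there were 1 higher and 13 lower. WRKY31 had no 35S:YFP-AFL1 array well above background, and wild type was at least 1.096-fold higher (adjusted p = 0.122). WRKY75 differed by -1.31 (adjusted p = 0.0854) and by -1.09 on the same slide.

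**Figure D5:**
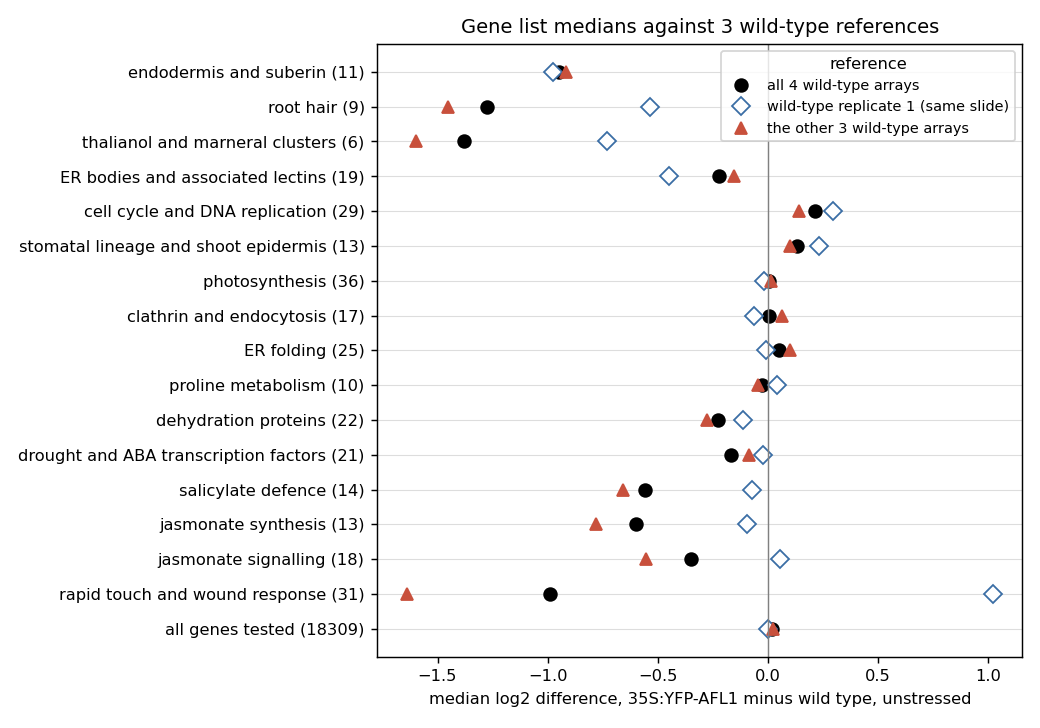
Median log2 difference, unstressed 35S:YFP-AFL1 minus wild type (horizontal axis), over the tested genes of 16 lists and of all genes, with the number of genes in brackets. Black circles use all 4 wild-type arrays, open diamonds replicate 1 on the same slide and triangles the other 3; the endodermis list lies near -1 on each reference, and the touch and wound list moves from -1.64 to 1.02.

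Genes of the response to low water potential were not called before any stress, and their list medians were closer to 0 against replicate 1. The 22 dehydration protein genes had a median difference of -0.23 and the 21 drought and ABA transcription factors one of -0.17, with same-slide medians of -0.11 and -0.02. Below all wild-type arrays lay 3 and 2 of them (6.73% of all genes), with none above. No gene of either was called, and 4 of each had an unadjusted p under 0.05 in limma. LTI30, a dehydrin, read -0.94, 0.48, -0.47 and -0.75 in wild type and -1.61, -2.42 and -1.61 in 35S:YFP-AFL1. Its difference was -1.45 (adjusted p = 0.0865) and -0.93 on the same slide, against -0.34 at low water potential. NCED3, the controlling enzyme of ABA synthesis, read -2.38, -1.26, -1.26 and -1.64 in wild type and -2.42, -2.85 and -2.96 in 35S:YFP-AFL1. Replicate 1 lay next to the highest 35S:YFP-AFL1 array, and the difference was -1.11 (adjusted p = 0.11) and -0.36 on the same slide. CYP707A1, which breaks ABA down, was at least 2.07-fold higher in wild type (adjusted p = 0.127) and was not well above background on the same slide. HAI1, a phosphatase of the ABA pathway, was at least 1.39-fold higher in wild type (adjusted p = 0.188), with a same-slide difference of -0.84. The 20 genes of ABA synthesis, breakdown and its phosphatases had a median of 0.17 and -0.01 on the same slide, with 0 called and 4 under an unadjusted p of 0.05. ABI1, another such phosphatase, differed by -0.36 (adjusted p = 0.255). NAC019 and ATAF1, transcription factors of the drought response, differed by -0.91 and -0.59 (adjusted p = 0.101 and 0.138), with same-slide values of -0.55 and -0.25.

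The 10 genes of proline metabolism had a median of -0.03, with 0 genes outside the wild-type range on either side and 0 called or under an unadjusted p of 0.05. P5CS1, the controlling enzyme of proline synthesis, read -0.50, -0.02, -0.22 and -0.35 in wild type and -0.16, -0.15 and -0.03 in 35S:YFP-AFL1, with a difference of 0.16 (95% interval -0.23 to 0.55). ERD5, the proline dehydrogenase that breaks proline down, differed by -0.70 (adjusted p = 0.533) against all 4 arrays and by 0.77 on the same slide, since replicate 1 read 1.21 where the others read 3.09 to 3.25.

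Genes of the proteins that AFL1 is known to bind were not called. NAI2 differed by -0.26 (95% interval -1.04 to 0.52) and by -0.57 on the same slide, and the disulfide isomerase gene PDIL1-1 (AT1G21750, also called PDI5) by -0.25 (95% interval -0.67 to 0.18) and -0.12. The AP2 alpha-adaptin genes alpha-ADR and AT5G22780 each differed by 0.04. The 17 clathrin and endocytosis genes had a median of 0.01 and the 25 ER folding genes one of 0.05, with no call and 2 and 4 genes under an unadjusted p of 0.05. ER body genes lay lower as a list, with 17 of 19 below the wild-type mean, a median of -0.22 and a same-slide median of -0.45. None was called, and 3 had an unadjusted p under 0.05 in limma. All 35S:YFP-AFL1 arrays were below replicate 1 for 16 of these 19, where 29.4% of all genes were. PYK10, the main ER body glucosidase, differed by -0.23 (95% interval -0.61 to 0.15). Its relatives BGLU22 and BGLU21, both strong in roots, lay below every wild-type array, by -0.96 and -0.57 (adjusted p = 0.217 and 0.28). At low water potential they differed by -1.52 and -0.82 (adjusted p = 0.0203 and 0.0491). Probes of near-identical glucosidase genes can share signal, so BGLU21 and BGLU22 are less certain as single genes.

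Most of the remaining lists lay near the median of all genes on unstressed plates. The 29 tested beta-glucosidase genes, BGLU17 among them, had a median of -0.03 and 1 call. BGLU19, a seed-type member, lay above all wild-type arrays by 0.91 (adjusted p = 0.529), and BGLU28 lay below them by -1.10 (adjusted p = 0.216). The 26 expansin and xyloglucan enzyme genes, which loosen cell walls, had a median of -0.05, and XTH17 lay below all wild-type arrays by -0.86 (adjusted p = 0.242, -0.34 on the same slide). At low water potential the same list had a median of -0.51 and 5 calls, all lower, where 1.69% of all genes were called lower. The 29 lignin and secondary wall genes, a class that WRKY13 is known to act on, had a median of 0.01 and -0.20 on the same slide. Of these, the lignin synthesis genes 4CL2 and C4H lay below all wild-type arrays, by -0.40 and -0.19 (adjusted p = 0.24 and 0.688), and none of the list lay above. The 16 heat shock protein genes had a median of 0.12 and -0.31 on the same slide. The 18 flavonoid and 24 glucosinolate synthesis genes both had a median of -0.04, the 15 auxin response genes one of 0.06 and the 14 brassinosteroid genes one of -0.10, with same-slide medians from -0.15 to -0.05. The 21 circadian clock and 13 iron homeostasis genes had medians of -0.02 and 0.01, and of -0.23 and -0.03 on the same slide. The 7 late jasmonate output genes had a median of -0.55, with -0.05 against replicate 1. Of 3 listed dirigent genes, whose proteins guide phenol coupling, DIR6 passed the filter. DIR6 read -0.60, -0.30, -0.82 and -0.71 in wild type and -1.19, -1.14 and -1.22 in 35S:YFP-AFL1, with separate groups and a difference of -0.58 (adjusted p = 0.181). BGLU17 was the only gene of these lists called on unstressed plates, and between 0 and 6 of each had an unadjusted p under 0.05 in limma.

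Set beside the unstressed comparison, the same comparison at low water potential called 397 genes (2.17%), 87 higher and 310 lower, and its groups did not overlap for 14.6% of genes (6.41% above and 8.14% below). The groups were separate in the same direction in both treatments for 408 genes and in opposite directions for 83. No gene was called in the test of whether the genotype difference changed with treatment, where 1782 genes (9.73%) had an unadjusted p under 0.05 in limma. AOC1 was one of these, at -0.69 on unstressed plates and 0.35 at low water potential (unadjusted p = 0.000446, adjusted p = 0.178). Wild-type replicate 1 of the stress group shared slide 5 with the stressed 35S:YFP-AFL1 arrays, as on unstressed plates. Against that array the low water potential medians were -0.81 for endodermis and suberin, -1.15 for root hair and -1.27 for the triterpene clusters. Against all 4 they were -0.78, -1.46 and -2.03. The touch and wound list had 0.07 and -1.89 on these references. On the same slide PGIP1 and THAS1 differed by -0.62 and -1.27 at low water potential.

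The number of unstressed calls turned on wild-type replicate 1. Without it, 536 genes (2.93%) were called, 137 higher and 399 lower, the 4 genes above among them. Replicate 1 lay on the 35S:YFP-AFL1 side of the other 3 wild-type arrays for 134 of the 137 and 385 of the 399. The median differences of these genes were 0.89 and -1.28 against the other 3 wild-type arrays and 0.07 and -0.17 against replicate 1. A fit with the slide as a block called 34 genes (0.186%), 4 higher and 30 lower, of which WRKY13 was also called without the block. Others of the 34 were genes in which replicate 1 departed from every other array. AT5G45690 read -2.50 in replicate 1, -6.39 to -4.76 in the other wild-type arrays and -6.14 to -6.00 in 35S:YFP-AFL1, and DREB26, a stress transcription factor, read 1.34 in replicate 1, 3.10 to 3.29 in the other wild-type arrays and 2.85 to 3.53 in 35S:YFP-AFL1. Slide, scan day and genotype cannot be told apart for wild-type replicates 2 to 4 against 35S:YFP-AFL1.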

How the data were processed

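Total RNA of whole seedlings was labelled with 1 dye and measured on 14 Agilent arrays. Per the submitters' processing notes and the file headers, Agilent Feature Extraction 10.7.1.1 made the deposited spot intensity, with background subtracted within each array. The deposited table of all samples held the same intensity values (largest relative difference 0.000598679) on a linear scale with no centring, with medians of 205.4 to 288.5 over the unstressed arrays. Of 45220 spots 43803 were not controls, and of 43603 probes 34358 (78.8%) were matched by accession to a gene of the TAIR10.1 table, which served for names and neighbours only.

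Values were log2 of the signal minus the array's 75th percentile. Kept were 29101 probes that exceeded background clearly on 3 or more arrays of a group, and the brightest stood for each of 18309 genes, 8249 with a symbol. The fit used limma 3.58.1 under R 4.3.3, with 4 group means and 10 residual degrees of freedom. On simulated data for this comparison over 18309 genes, 68% of 100 changes of 1 and 93% of 100 changes of 2 (log2) were recovered, with 8 false calls. The simulated noise was independent between arrays and held no slide or scan-day difference. These rates therefore do not describe arrays in which slide and genotype are weakly separated, as here. The number of arrays limits the precision.

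The genes named and the 33 lists (683 genes, 590 tested) were chosen with earlier results of these data known. Named were AFL1 and AT14A, called genes, the largest or most clearly separated differences among genes with a symbol, up to 3 members a list by size, and neighbours of AFL1 and WRKY13; other list members were chosen after their values were seen. Alternatives covered normalization, background correction, filters, probes, slide, scan day, replicate number and each array left out. Values of 1 gene of the endodermis and suberin list are not reported here on their own.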

Additional observations from a re-analysis of the deposited data

Results flagged for a closer look

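In groups of 4 arrays, an array was singled out where its gap to the nearest other, divided by the group's whole range, passed Dixon's critical value of 0.829, which chance alone passes in about 5 of 100 groups. Among all genes tested, 1255 of 18309 (6.85%) had such an array in the unstressed wild-type group. That array was replicate 1 for 709 genes and replicates 2, 3 and 4 for 144, 123 and 279.

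Of the 91 genes examined for the report, 7 were singled out. Wild-type replicate 1 lay far below the other wild-type arrays for WRKY40 (-1.02 against 3.51 to 3.87), STZ (2.18 against 4.92 to 5.27), CBF2 (-6.23 against -1.15 to -0.38), CML38 (-3.55 against 1.06 to 1.26), ERD5 (1.21 against 3.09 to 3.25) and DREB26 (1.34 against 3.10 to 3.29). For GPAT5 it was replicate 3 that lay apart, at -4.44 against -4.05 to -3.98. Of 32 list medians 4 were singled out, all through replicate 1. These were rapid touch and wound response (-0.70 against 2.27 to 2.64), WRKY transcription factors (-1.83 against -1.24 to -1.18), ABA synthesis, breakdown and clade A phosphatases (-2.70 against -2.28 to -2.25) and aquaporins (4.46 against 4.07 to 4.09).

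When every kept probe was tested on its own, 9 of 29101 (0.0309%) were called, among them the 3 probes of AFL1 and 3 probes that did not stand for a gene in the main comparison and were not of AFL1. Probe A_84_P765122 of AT3G56210 read -1.03, -1.18, -1.21 and -1.15 in wild type and 0.05, 0.36 and 0.16 in 35S:YFP-AFL1. It was higher in 35S:YFP-AFL1 by 1.33 (adjusted p = 0.0214 over probes in limma) and by 1.22 on the same slide. At low water potential the genotype difference was 1.55 (adjusted p = 0.00408). On unstressed plates the other 2 probes of AT3G56210 differed by 0.62 and -0.18. Probe A_84_P797324 of AT3G27025 differed by 1.49 (adjusted p = 0.0393), although it was not well above background on any unstressed array. Probe A_84_P804296, which has no gene in the table, read -6.10, -6.58, -5.51 and -6.64 in wild type, where it was not well above background, and -3.43, -3.42 and -3.37 in 35S:YFP-AFL1. Its fitted difference was 2.80 (adjusted p = 0.035), with 2.69 on the same slide and -0.51 at low water potential.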

How the results depend on the processing

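The count of unstressed calls, 4 in the report, was 7 with quantile normalization and 20 with normexp background correction, which used the median spot signal. It was 34 with the slide as a block, 1 with the slide as a random block (correlation 0.442), 1 with the scan day as a block and 2, both higher, with a replicate block, so that BGLU17 and AT2G21100 were not called. It was 9 over single probes, an alternative chosen after seeing the data, and ran from 2 to 536 with 1 array left out: 536 without wild-type control 1, 2 without wild-type control 2, 22 and 2 without 35S:YFP-AFL1 control 1 and 3, and 9 and 23 without wild-type stress 1 and 3. The low water potential count of 397 was 62 with the slide block and 199 with the replicate block. The difference between treatments was called for 1 named gene with the slide block. AFL1 was not called with only the 7 unstressed arrays (2.41, adjusted p = 0.0854), the slide block (1.68, 0.112), the random slide block (2.10, 0.0578) or the scan day block (2.11, 0.237). With the slide block WRKY40 (1.58), STZ (1.33), CBF2 (2.24, replicate 1 not well above background), ERD5 (0.77) and the touch list median (1.02) turned positive, the touch list median also with the scan day block (0.23), and the root hair median was -0.54. Deviations of same-numbered unstressed arrays correlated at 0.25, 0.050 and 0.12 between genotypes. Not all passed 0.1, so the numbers were not taken to pair the samples, although each array correlated best with its own number, a hint from the data only. The sign was the same under every alternative for 73 of 91 genes and 14 of 32 list medians. With only replicate 1 on the slide of the 35S:YFP-AFL1 arrays, slide and genotype are weakly separated. The causes of these changes were not tested, and dim probes limit the lowest levels.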
